A study of Mus musculus with 12 samples.

Results

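The lower part of glycolysis turns triose phosphates into pyruvate and lactate, and 10 genes of this stretch and of lactate export are described here over the 4 conditions of an RNAseq experiment in mouse MPC2 cells. They are the enzyme genes Tpi1, Gapdh, Pgk1, Pgam1, Pkm, Ldha and Ldhb, the monocarboxylate carriers Slc16a1 and Slc16a3, and Bsg, which encodes the chaperone of these carriers. The genes were taken by symbol from a list of 10, and 10 of 10 were found among the 56350 genes of the count table, each in a single row. All 10 passed the filter on low counts (more than 10 counts in at least 3 libraries), but Slc16a3 passed only through the 3 libraries in which it was highest. MPC2 is a conditionally immortalized mesenchymal stem cell line that is a single clone, so the libraries share one genetic background. Each condition had 3 libraries. The MSCs were undifferentiated MPC2 cells kept at 33 °C, treated for 48 hours with the vehicle DMSO or with 50 µmol/L FG-4592 (Roxadustat), an inhibitor of the prolyl hydroxylases that mark hypoxia-inducible factors (HIF) for destruction. The osteocytes were MPC2 cells differentiated for 3 weeks at 37 °C with β-glycerophosphate and ascorbic acid and then treated in the same 2 ways. Temperature and media changed together with differentiation, so these cannot be told apart in any comparison of osteocytes with MSCs. The labels do not say that the libraries of a condition came from separate cultures, so the p-values measure only the spread between these libraries.

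Glycolysis gains ATP and NADH in its lower part, and cells that respire little regenerate NAD+ by reducing pyruvate to lactate, which leaves through proton-coupled carriers in the plasma membrane. Triose phosphate isomerase, glyceraldehyde-3-phosphate dehydrogenase, phosphoglycerate kinase, phosphoglycerate mutase, pyruvate kinase and lactate dehydrogenase act in that order, with enolase, described further below, between the mutase and pyruvate kinase. Lactate dehydrogenase is a tetramer of A and B subunits, of which A favours lactate and B is typical of respiring tissue. Many genes of the pathway are textbook targets of HIF, which binds a short core motif in DNA near their start sites.

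With the responses to FG-4592 known, the 250 bases before the start sites of these genes were searched for the core motif ACGTG and the related GCGTG on both strands. Overlapping matches were merged. The upstream sequences at hand, from RefSeq (GRCm38.p6), covered 11 start sites of 9 of the 10 genes and did not include Bsg. A match lay in 9 of the 11 windows, and 8 of the 9 genes had a match in at least 1 window. Of all 32851 windows of this length, 38.6% held at least 1 match. These were not matched to the windows of the members for base composition, and no test was made. Whether HIF binds at the matches was not tested. The windows printed here are those of Pgk1 and Ldha, which rose strongly with FG-4592, of Tpi1, which rose without a match, and of Ldhb and Slc16a3, which behaved differently from the rest. Capitals mark the matches and each sequence ends at the base before the start site.
Pgk1, chrX:106186850-106187099, plus strand: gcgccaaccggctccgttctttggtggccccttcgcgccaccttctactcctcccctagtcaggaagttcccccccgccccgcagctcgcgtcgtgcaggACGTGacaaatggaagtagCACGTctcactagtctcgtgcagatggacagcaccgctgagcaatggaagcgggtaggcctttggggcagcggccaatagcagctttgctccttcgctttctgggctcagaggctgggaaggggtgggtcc
Ldha, the more upstream of its 2 start sites, chr7:46845554-46845803, plus strand: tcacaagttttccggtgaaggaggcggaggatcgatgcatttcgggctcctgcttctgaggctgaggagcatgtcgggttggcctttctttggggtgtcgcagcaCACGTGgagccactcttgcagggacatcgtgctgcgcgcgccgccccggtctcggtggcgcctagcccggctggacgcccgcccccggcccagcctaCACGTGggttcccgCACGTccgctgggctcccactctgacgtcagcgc
Tpi1, chr6:124814159-124814408, minus strand: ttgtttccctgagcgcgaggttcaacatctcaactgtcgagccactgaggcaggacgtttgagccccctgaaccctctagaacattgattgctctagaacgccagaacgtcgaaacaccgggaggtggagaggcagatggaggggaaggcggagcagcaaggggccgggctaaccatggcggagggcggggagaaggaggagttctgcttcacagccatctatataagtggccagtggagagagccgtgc
Ldhb, chr6:142507958-142508207, minus strand: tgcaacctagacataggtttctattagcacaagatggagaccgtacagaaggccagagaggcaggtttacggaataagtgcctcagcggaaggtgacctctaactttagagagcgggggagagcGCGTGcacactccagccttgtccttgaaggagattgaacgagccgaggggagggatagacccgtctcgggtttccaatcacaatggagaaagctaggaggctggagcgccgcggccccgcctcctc
Slc16a3, chr11:120948817-120949066, plus strand: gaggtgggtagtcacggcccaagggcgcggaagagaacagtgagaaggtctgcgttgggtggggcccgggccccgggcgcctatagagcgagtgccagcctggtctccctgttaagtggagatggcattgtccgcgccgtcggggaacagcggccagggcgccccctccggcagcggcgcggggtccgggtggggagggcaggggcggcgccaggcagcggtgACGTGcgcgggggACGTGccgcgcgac
The Pgk1 window held 2 matches, which began 150 and 131 bases before the start, and the Ldha window held 3, at 145, 48 and 34 bases. The other Ldha window held 1 match, those of Slc16a1 and Pgam1 held 3 each, that of Gapdh held 2, and 1 of the 2 Pkm windows held 1. Some of the listed starts were not found near the start of any Gencode transcript of these genes. They were the starts of Pgam1 and Slc16a1, the printed Ldha start and the Pkm start with a match. Ldhb, which fell with FG-4592, held 1 match at 126 bases, and Slc16a3, close to undetected in 3 conditions, held 2 at 27 and 14 bases. A match is only a run of letters, and its absence in Tpi1 says no more than that these letters are not in this window.

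Total counts per library ranged from 52829185 to 68108470 (median 62272678.5), and a floor of 3 counts corresponded to between 0.0447 and 0.0545 CPM (read count scaled to the TMM-normalized library size), for counting error only. Mitochondrial genes took between 2.56% and 2.84% of the counts in vehicle-treated MSCs and between 2.30% and 2.50% with FG-4592, and between 3.30% and 3.74% in vehicle-treated osteocytes and between 2.15% and 2.18% with FG-4592, so that the share was lower in every treated library than in the vehicle libraries of its cell type. Its part in the responses below was not tested, and leaving these genes out of the totals is described with the shares of counts. Of 12 markers of osteogenic cells, the osteocyte hormone gene Sost had 0 counts in every library and Mepe and Pdpn had at most 2, and 9 of the 12 were tested. With vehicle, 3 were higher in osteocytes by more than 1 on the log2 scale at an FDR below 0.05, namely Bglap, Dmp1 and Phex, the latter at 57.6 against 0.977 CPM, and none was lower by that much. At the FDR alone, Runx2 (0.56), Sp7 (0.45) and Spp1 (0.80) were higher, Ibsp (−0.74) and Alpl (−0.33) were lower, and Col1a1 had a log2 difference of −0.03. Markers of 5 adipocyte genes summed to between 6.36 and 12.5 CPM in MSCs and to between 1808 and 2537 CPM in osteocytes, with Adipoq at a mean of 1470 CPM in vehicle-treated osteocytes and Lep at most 3 counts. The 4 chondrocyte markers summed to at most 1.41 CPM in MSCs and to between 52.9 and 332.8 CPM in osteocytes, nearly all of it Col2a1. Markers of blood (7 genes), vessel (4) and muscle cells (5) summed to at most 2.05, 2.64 and 1.08 CPM, and Adgre1, Hbb-bs, Myh4 and Myog had 0 counts throughout. With FG-4592, 4 of the 9 osteogenic markers tested fell by more than 1 on the log2 scale in each cell type and none rose by that much, while Spp1 rose by 0.52 in MSCs (FDR 0.000203).

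FG-4592 raised most of the stretch in both cell types. In MSCs 8 of the 10 genes rose past both cutoffs (more than 1 in either direction on the log2 scale, with an FDR below 0.05 in edgeR's quasi-likelihood test), against 4.12% of the 16484 genes tested, and 1 fell, against 5.17%. In osteocytes 8 rose, against 6.25% of all genes, and 1 fell, against 4.26%. Among these 8 is Slc16a3, which was tested only because the treated osteocyte libraries were high, and 7 rose without the filter on low counts. The 7 genes Tpi1, Gapdh, Pgk1, Pgam1, Pkm, Ldha and Bsg rose in both, Ldhb fell in both, Slc16a1 rose past the fold cutoff only in MSCs, and Slc16a3 passed only in osteocytes, differences that are tested further below. At an FDR under 0.05 alone, 9 of the genes passed in MSCs and 10 in osteocytes (9 without the filter), where 38.1% and 43.8% of all genes did. The treated and vehicle libraries did not overlap in CPM for 9 of the genes in MSCs (50.5% of all genes) and for 10 in osteocytes (51.8%). These 10 also include Slc16a3, which was tested only through its high treated libraries. The median log2 fold change of the 10 genes was 2.56 in MSCs and 2.82 in osteocytes (2.69 and 2.75 without Slc16a3), where that of all genes tested was −0.05 and 0.00. In bulk RNA a change in the share of a cell type and a change in RNA per cell cannot be told apart.

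**Figure D1:**
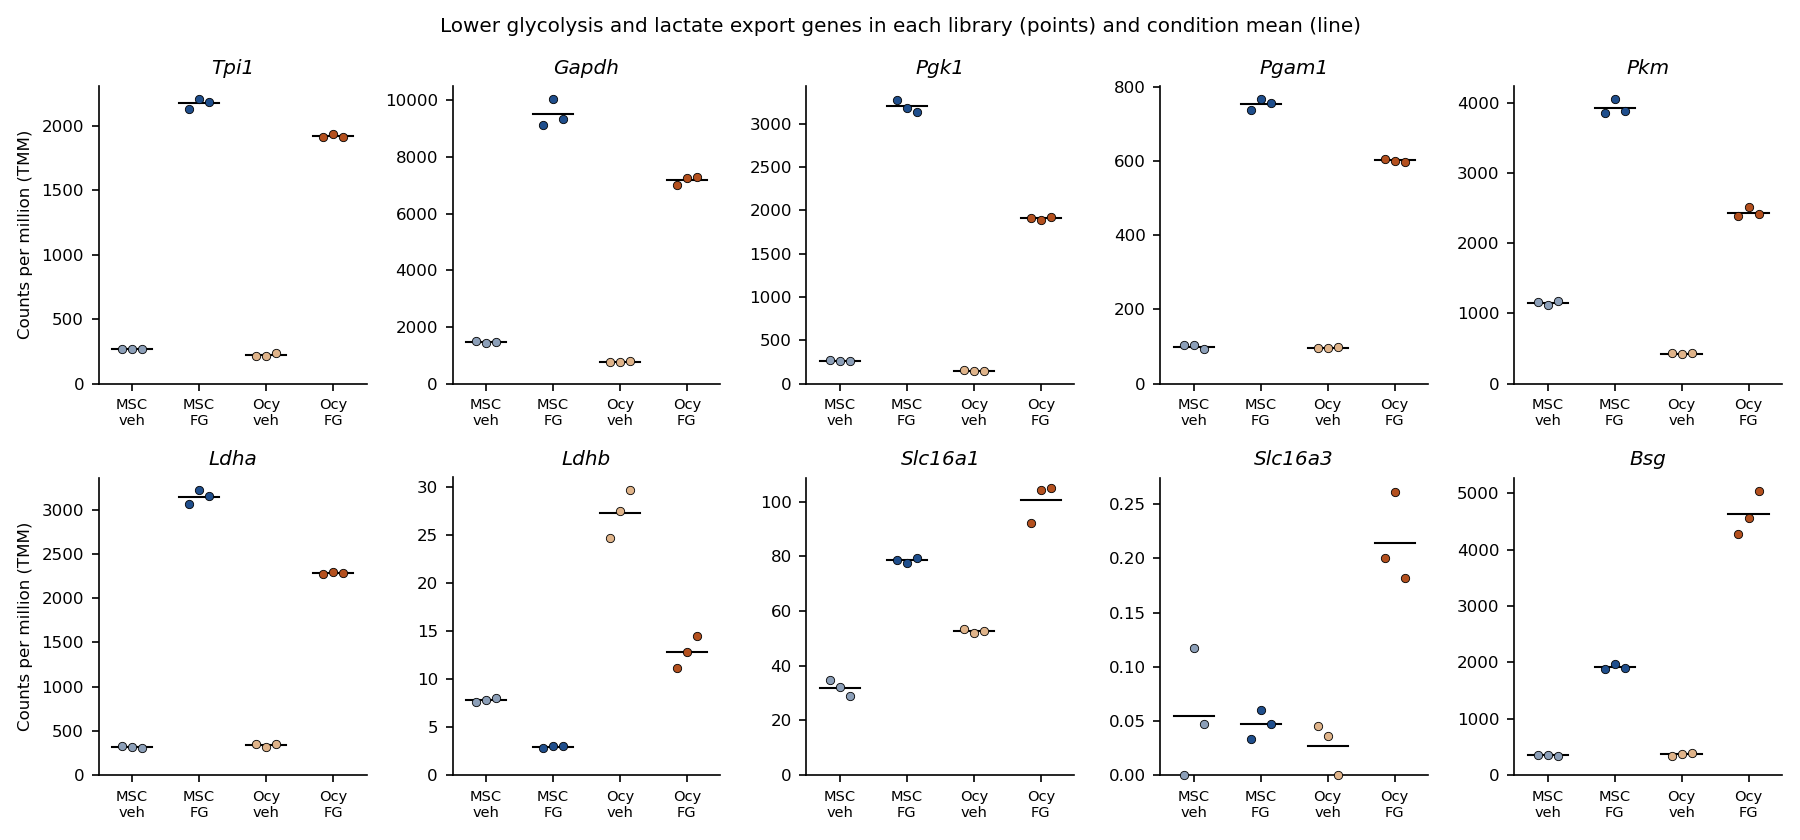
TMM-normalized CPM (linear axis from 0) of the 10 genes, with a point for each library and a line at the mean of the 3 libraries of a condition (veh, vehicle; FG, FG-4592; Ocy, osteocytes). In the panels of Tpi1, Gapdh, Pgk1, Pgam1, Pkm, Ldha and Bsg the treated libraries lie far above the vehicle libraries, Ldhb runs the other way, and Slc16a3 reaches at most 0.117 CPM outside the treated osteocytes, whose lowest library is at 0.182 CPM.

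Tpi1 (chr6:124810586-124814296, minus strand, mm10) encodes the isomerase that feeds dihydroxyacetone phosphate into the lower pathway. It stood at 268, 271 and 271 CPM in vehicle-treated MSCs and at 2130, 2211 and 2190 CPM with FG-4592. In osteocytes the vehicle libraries held 213, 214 and 236 CPM and the treated libraries 1916, 1938 and 1913 CPM. No vehicle library came near a treated one, and the log2 fold change was 3.01 (SE 0.05) in MSCs and 3.12 (SE 0.05) in osteocytes (FDR 1.22e-16 and 1.02e-16). Its exons share 34 bases with Spsb2 on the other strand, and the counts carry no strand. Spsb2 itself had at most 959 counts and fewer with FG-4592 than with vehicle in every library of both cell types.

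Gapdh (chr6:125161715-125166467, minus strand), the dehydrogenase that makes NADH in the pathway, is the most abundant of these genes by count. Its vehicle libraries in MSCs held 1506, 1444 and 1455 CPM and its treated libraries 9137, 10040 and 9332 CPM. The osteocyte libraries held 743, 748 and 786 CPM with vehicle and 7002, 7249 and 7289 CPM with FG-4592. The rise was 6.47-fold in MSCs (log2 2.69, SE 0.04, FDR 2.53e-16) and 9.46-fold in osteocytes (log2 3.24, SE 0.05, FDR 6.3e-17). Its exons share 68 bases with Iffo1 on the other strand, which had at most 1808 counts and fewer with FG-4592.

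Pgk1 (chrX:106187100-106203699, plus strand), the kinase of the ATP-yielding step that follows Gapdh, had the largest rise of the members in MSCs. Levels in MSCs were 271, 256 and 256 CPM with vehicle and 3281, 3185 and 3142 CPM with FG-4592. Osteocytes went from 151, 143 and 148 CPM to 1911, 1888 and 1922 CPM. The fold change was 12.3 in MSCs (log2 3.62, SE 0.04, FDR 1.47e-17) and 13.0 in osteocytes (log2 3.70, SE 0.04, FDR 1.15e-17), which put Pgk1 at ranks 104 and 160 of the 16484 genes when ordered from the largest rise. In osteocytes its rise and that of Bsg (3.66, SE 0.07) differed by less than an SE, and Bsg came first without vehicle-treated osteocyte replicate 2 or 3 or treated osteocyte replicate 1.

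Pgam1 (chr19:41911923-41918660, plus strand) encodes the mutase that moves the phosphate group on phosphoglycerate. MSC libraries held 103, 103 and 92.8 CPM with vehicle and 737, 768 and 756 CPM with FG-4592, and osteocyte libraries 95.5, 95.5 and 98.7 CPM and 606, 600 and 597 CPM. The vehicle libraries of the 2 cell types overlapped and the treated libraries did not. Pgam1 rose by log2 2.92 (SE 0.05, FDR 3.46e-16) in MSCs and by 2.64 (SE 0.05, FDR 6.54e-16) in osteocytes.

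Pkm (chr9:59656368-59679375, plus strand), the pyruvate kinase gene whose M1 and M2 splice forms a count per gene does not separate, had the smallest rise among the enzyme genes that rose. In MSCs it went from 1162, 1121 and 1174 CPM to 3850, 4057 and 3878 CPM, and in osteocytes from 428, 426 and 428 CPM to 2389, 2510 and 2409 CPM. Its log2 fold change was 1.77 (SE 0.04, FDR 8.7e-15) in MSCs and 2.51 (SE 0.04, FDR 2.62e-16) in osteocytes. A gene annotated on the same strand, Gm49759, lies over 767 of its exonic bases and rose with it, from between 473 and 1452 counts in the vehicle libraries to between 4020 and 8713 in the treated libraries. Read pairs in that stretch were counted for both genes.

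The subunit genes of lactate dehydrogenase moved in opposite directions. Ldha (chr7:46841475-46855627, plus strand), the A subunit, stood at 327, 317 and 311 CPM in vehicle-treated MSCs and at 3064, 3221 and 3156 CPM with FG-4592. In osteocytes the values were 356, 320 and 347 CPM and then 2276, 2301 and 2291 CPM. The vehicle levels of the cell types overlapped, whereas every treated MSC library lay above every treated osteocyte library. Ldha rose 9.89-fold in MSCs (log2 3.31, SE 0.05, FDR 6.89e-17) and 6.71-fold in osteocytes (log2 2.75, SE 0.05, FDR 2.65e-16).

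Ldhb (chr6:142490249-142507957, minus strand), the B subunit, was the only member that fell in both cell types. MSC libraries held 7.59, 7.77 and 7.98 CPM with vehicle and 2.84, 3.04 and 2.98 CPM with FG-4592. Osteocyte libraries held 24.7, 27.5 and 29.7 CPM and then 11.2, 12.9 and 14.5 CPM, so that even the treated osteocytes lay above the untreated MSCs. Ldhb fell by 1.40 on the log2 scale in MSCs (SE 0.11, FDR 5.06e-08) and by 1.09 in osteocytes (SE 0.10, FDR 2.02e-07). The osteocyte value lies close to the fold cutoff, and without replicate 1 of the treated osteocytes it was −0.995 (FDR 2.33e-06), which no longer passes.

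Within a library, the ratio of Ldha to Ldhb (counts per kilobase of merged exons) does not depend on the scaling between libraries. It was 20.4, 19.3 and 18.5 in vehicle-treated MSCs and 512, 503 and 502 with FG-4592. In osteocytes it was 6.85, 5.52 and 5.56 with vehicle and 96.5, 84.9 and 75.0 with FG-4592. The 4 conditions did not overlap, with treated MSCs highest and vehicle-treated osteocytes lowest. FG-4592 raised the ratio by log2 4.70 in MSCs and by 3.84 in osteocytes, while osteocytes lay below MSCs by 1.71 with vehicle and by 2.57 with FG-4592. Each of these differences had an exact two-sided permutation p of 0.1, the smallest that 3 libraries against 3 can give. On the principal transcript of each gene in place of the merged exons, an alternative chosen after the data were seen, the mean ratio in vehicle-treated MSCs was 30.2 rather than 19.4, with the differences between conditions as before.

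**Figure D2:**
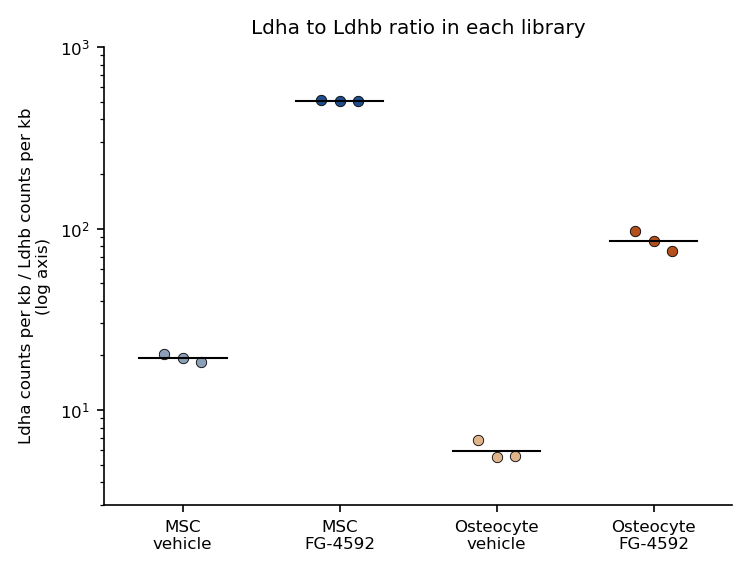
Ratio of Ldha to Ldhb in each library, in counts per kilobase of merged exons on a log axis, with a line at the geometric mean of the 3 libraries of a condition. The vehicle-treated osteocytes lie lowest (5.52 to 6.85) and the FG-4592-treated MSCs highest (502 to 512), with no overlap between conditions.

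Among the carriers, Slc16a1 (chr3:104638668-104658462, plus strand) encodes MCT1, a carrier of lactate and pyruvate. Its level was 34.6, 32.2 and 28.8 CPM in vehicle-treated MSCs and 78.5, 77.6 and 79.5 CPM with FG-4592, and in osteocytes 53.6, 51.9 and 52.6 CPM and then 92.1, 104 and 105 CPM. The conditions stood in the order vehicle-treated MSCs, vehicle-treated osteocytes, treated MSCs and treated osteocytes, with no overlap between neighbours. Slc16a1 rose by log2 1.30 in MSCs (SE 0.07, FDR 2.07e-10). In osteocytes the log2 fold change of 0.93 (SE 0.07, FDR 7.39e-09) passed the FDR but not the fold cutoff, and it stayed under 1 in all alternatives run (0.83 to 0.99).

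Slc16a3 (chr11:120948480-120960868, plus strand) encodes MCT4, the carrier typical of glycolytic muscle, and was all but undetected in this line. It had 0, 7 and 3 counts in the vehicle-treated MSC libraries and 2, 4 and 3 with FG-4592, and in osteocytes 3, 2 and 0 counts with vehicle and 13, 16 and 11 with FG-4592. The treated osteocyte libraries lay above all the others, and the other 9 overlapped and stood at or near the floor of 3 counts. Summed over libraries, 40 counts in treated against 5 in vehicle-treated osteocytes give a ratio of CPM of 7.87 (exact 95% interval 3.1 to 25.5, counting error only), and 9 against 10 counts in MSCs give 0.842 (0.303 to 2.31), where the fitted log2 fold change was −0.23 (SE 0.97, FDR 0.884). The rise in osteocytes passed both cutoffs (log2 2.89, SE 0.95, FDR 0.0206) but not without the filter on low counts (FDR 0.0755) or without replicate 3 of the vehicle-treated osteocytes (FDR 0.0584), and the FDR over the alternatives ran from 0.000795 to 0.0755. Without any 1 of the treated osteocyte libraries the gene failed the filter and was not tested. Slc16a3 held at most 0.362% of the counts of the 2 carriers in a library (exact 95% interval 0.146% to 0.745%), and a log2 ratio of the carriers could not be formed where it had 0 counts.

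Bsg (chr10:79704491-79711969, plus strand) encodes basigin, the glycoprotein that takes MCT1 and MCT4 to the cell surface. MSC libraries held 363, 364 and 346 CPM with vehicle and 1876, 1971 and 1892 CPM with FG-4592, and osteocyte libraries 333, 373 and 390 CPM and then 4285, 4557 and 5047 CPM. Vehicle levels overlapped between the cell types, and every treated osteocyte library lay above every treated MSC library. Bsg rose 5.35-fold in MSCs (log2 2.42, SE 0.07, FDR 7.59e-14) and 12.7-fold in osteocytes (log2 3.66, SE 0.07, FDR 6.54e-16).

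Whether the cell types answered FG-4592 differently was tested for each gene by an interaction contrast, the response of osteocytes minus that of MSCs. The difference passed an FDR under 0.05 for 6 of the 10 genes, where 24.3% of all genes did, and in both directions. Bsg was the single member past both cutoffs in the positive direction (3.94% of all genes), with a difference of 1.24 (SE 0.09, FDR 6.8e-08). No member passed in the negative direction in edgeR's quasi-likelihood test or in DESeq2, where 1.07% of all genes did by the former. In edgeR 7 members, with Slc16a3, had an unadjusted p under 0.05 in either direction, where 24.3% of all genes passed even the FDR. Pkm (0.74, SE 0.06, FDR 1.07e-07) and Gapdh (0.55, SE 0.06, FDR 6.71e-06) responded more in osteocytes. Ldha (−0.56, SE 0.06, FDR 8.51e-06), Slc16a1 (−0.37, SE 0.09, FDR 0.00764) and Pgam1 (−0.28, SE 0.07, FDR 0.00509) responded more in MSCs. For Tpi1 the difference was 0.11 (95% interval −0.02 to 0.24, FDR 0.227), for Pgk1 0.08 (−0.04 to 0.20, FDR 0.363) and for Ldhb 0.31 (−0.01 to 0.63, FDR 0.15). The difference of Slc16a3, 3.12 (0.20 to 6.04, FDR 0.116), rests on the few counts given above. Markers of other cells also differed in their response, with 1.48 for Col2a1, the chondrocyte marker tested (62.7 to 293.9 CPM in osteocytes), and with calls for 2 of the 4 adipocyte markers tested. These were Fabp4 (1.04) and Adipoq (1.34), the latter through a fall in MSCs (7.77 to 2.86 CPM) beside a log2 fold change of −0.10 in osteocytes, while Plin1 (0.71, FDR 0.174) and Cfd (0.79, FDR 0.72) were not called. The part of such cells in these differences was not tested. The adipocyte markers summed to 1808 to 2537 CPM in vehicle-treated and 2121 to 2518 CPM in FG-4592-treated osteocytes.

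**Figure D3:**
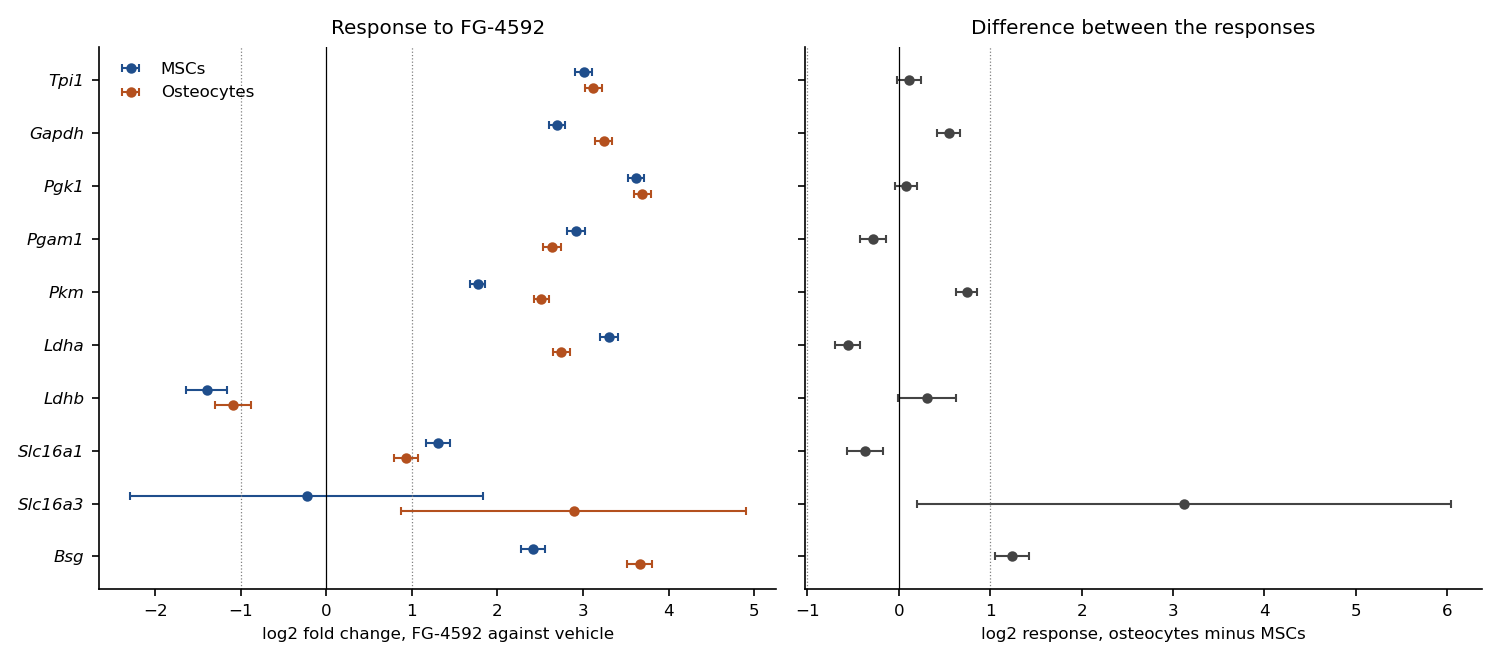
Left, log2 fold change of each gene with FG-4592 in MSCs (blue) and osteocytes (orange); right, the response of osteocytes minus that of MSCs. Points are edgeR estimates, bars are 95% intervals and dotted lines mark a log2 value of 1 in either direction. Pkm, Gapdh and Bsg lie right of 0 in the right panel and Ldha, Slc16a1 and Pgam1 left of it, and the bars of Slc16a3 are wide in both panels.

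The vehicle-treated cell types were also compared with each other. With vehicle, Ldhb was the single member higher in osteocytes past both cutoffs (9.83% of all genes), by log2 1.81 (SE 0.10, FDR 4.58e-10), and Pkm the single member lower (6.08% of all genes), by log2 −1.43 (SE 0.04, FDR 6.31e-14). Gapdh (−0.95), Pgk1 (−0.83), Tpi1 (−0.29) and Slc16a1 (0.73) passed the FDR alone, which makes 6 genes against 51% of all genes. Pgam1, Ldha, Bsg and Slc16a3 had FDR values of 0.461, 0.0699, 0.698 and 0.468, and the 4 of them were those whose vehicle libraries overlapped between the cell types. The other 6 did not overlap, as did 56.9% of all genes. The median of the 10 genes was −0.17, and −0.04 without Slc16a3, whose value rests on 5 against 10 counts, beside −0.01 for all genes. The Pkm value includes pairs counted for Gm49759 as well. The adipocyte marker sum was at most 12.5 CPM in MSCs and at least 1808 CPM in osteocytes, with 4 of 4 markers tested higher with either treatment, and the part of such cells in these differences was not tested.

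Between the FG-4592-treated cells, 10 of the 10 genes passed an FDR under 0.05 (55.8% of all genes, and 9 members without the filter on low counts). The libraries overlapped for none of the 10, among them Slc16a3, which the treated osteocyte libraries brought past the filter (64.1% of all genes did not overlap). Ldhb (2.12, SE 0.11, FDR 1.13e-10), Bsg (1.28, SE 0.06, FDR 5.19e-11) and Slc16a3 (2.14, SE 0.88, FDR 0.0481) were higher in osteocytes past both cutoffs, against 12.6% of all genes, and DESeq2 called 2 of the 3. Slc16a3 was again tested only through the treated osteocyte libraries, and 2 members were higher without the filter on low counts. The call of Slc16a3 was lost in 11 of 21 alternatives, with an FDR of up to 0.18. It was lost on leaving out any 1 of the treated MSC libraries (FDR 0.118, 0.08 and 0.0927 without replicates 1, 2 and 3), replicate 3 of the vehicle-treated MSCs (FDR 0.0554) or replicate 2 of the vehicle-treated osteocytes (FDR 0.0543). No member was lower past both cutoffs in edgeR's quasi-likelihood test or in DESeq2, where 5.64% of all genes were by the former. In edgeR 10 members, with Slc16a3, had an unadjusted p under 0.05 in either direction, where 55.8% of all genes passed even the FDR. Pgk1 (−0.75), Pkm (−0.69), Ldha (−0.46), Gapdh (−0.40), Pgam1 (−0.33) and Tpi1 (−0.18) lay below MSCs with an FDR of at most 0.00214, and Slc16a1 (0.36) above. The median of the 10 was −0.25 (−0.33 without Slc16a3), beside 0.03 for all genes. These comparisons share libraries with those of FG-4592 against vehicle and are not independent of them.

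Per kilobase of merged exons, Gapdh was the highest member in MSCs, with a mean RPKM of 355 ± 7.95 (SD, n = 3) in the vehicle libraries and 2299 ± 115 in the treated ones. In osteocytes Bsg was highest, at 202 ± 16.1 RPKM with vehicle and 2552 ± 213 with FG-4592. With vehicle, Gapdh followed it at 184 ± 5.75 RPKM, and the libraries of Bsg (184, 206 and 215 RPKM) overlapped those of Gapdh (180, 181 and 190 RPKM). This order depends on the length used. On the principal transcript, Gapdh was at 5056 ± 110 RPKM and Bsg at 3034 ± 253 RPKM in treated osteocytes. Slc16a1 stood between 7.2 and 22.7 RPKM in the 4 conditions, and Slc16a3 between 0.0051 and 0.040 RPKM. In vehicle-treated osteocytes Ldhb, at 17.4 ± 1.6 RPKM, lay above Slc16a1, at 11.9 ± 0.19 RPKM, and in the other 3 conditions below it. Neighbouring levels of this kind compare different genes, with different lengths and mappability, and no test was made.

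The 10 genes together took 0.415% ± 0.00768 (SD, n = 3) of all counts in vehicle-treated MSCs and 2.43% ± 0.0845 with FG-4592. In osteocytes the share went from 0.248% ± 0.00559 to 2.01% ± 0.0531. The 4 conditions did not overlap, and each comparison had an exact two-sided permutation p of 0.1, the smallest possible here. Without mitochondrial genes in the totals the mean shares were 0.426%, 2.50%, 0.257% and 2.05%, in the order vehicle-treated and treated MSCs and vehicle-treated and treated osteocytes. Gapdh alone held more counts than any other member in each library, between 41606 and 673755.

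**Figure D4:**
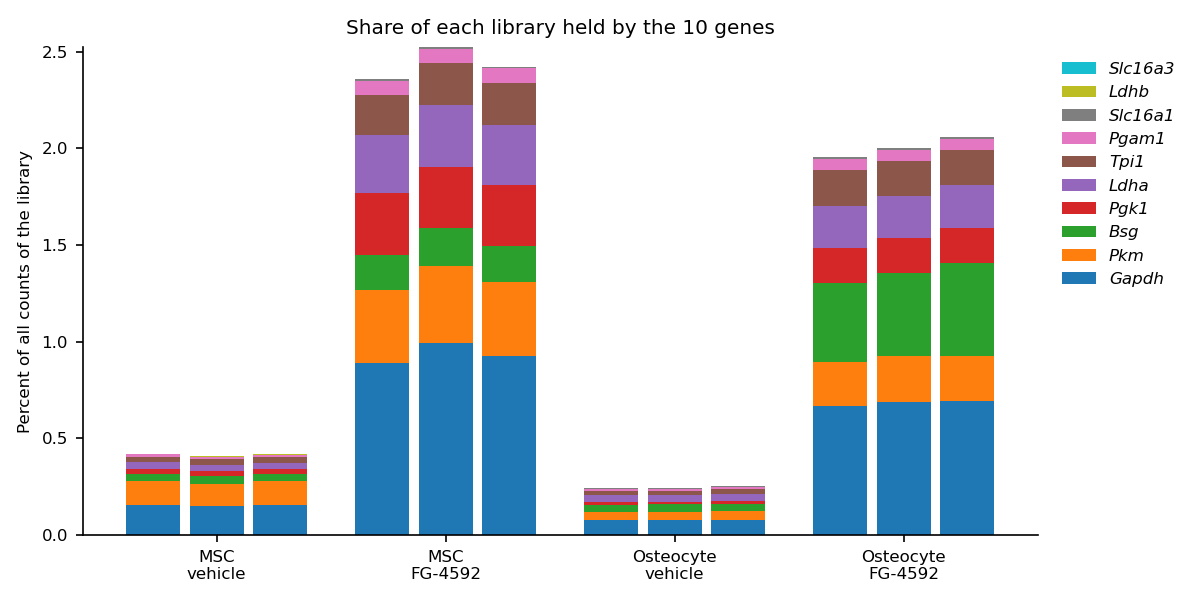
Percent of all counts of each library taken by the 10 genes, stacked by gene, with a bar for each of the 3 libraries of a condition. The bars stand between 0.406% and 0.421% in vehicle-treated MSCs, 2.36% and 2.52% in FG-4592-treated MSCs, 0.245% and 0.255% in vehicle-treated osteocytes and 1.95% and 2.06% in FG-4592-treated osteocytes.

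Processed copies of these genes are spread over the genome, and reads can fall on them. Rows with a stretch of at least 100 bases at 95% identity or more to a member's transcripts numbered 152 for Gapdh, 144 of them annotated as pseudogenes, and between 1 and 8 for Tpi1, Pgk1, Pgam1, Pkm, Ldha and Ldhb. None was found for Slc16a1, Slc16a3 and Bsg. The Gapdh-like rows together had counts equal to between 2.69% and 12.4% of the Gapdh counts of a library. Their summed level was 106.8 CPM in vehicle-treated and 294.6 CPM in FG-4592-treated MSCs, and 86.0 and 227 CPM in osteocytes, with no test made. That sum includes the protein-coding gene Peli2, which matched over 199 bases and had between 2844 and 5258 counts. The single Ldhb-like row had counts equal to between 0.11% and 18.6% of the Ldhb counts. Adding such rows to the members changed no call. Only uniquely mapped pairs were counted, so pairs that fit a gene and its copy equally well are in no row. Adding rows does not recover them, and their number is not known here.

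Upper glycolysis and the enolases gave a similar picture. Of 17 such genes, 12 were tested, and 8 rose and none fell in each cell type, in edgeR and in DESeq2. Of all genes, 4.12% rose in MSCs and 6.25% in osteocytes, and 5.17% and 4.26% fell. At an FDR under 0.05 alone, 10 and 11 of the 12 passed, where 38.1% and 43.8% of all genes did. The largest rises in MSCs were those of Pfkl, the liver-type phosphofructokinase (log2 3.74, SE 0.07), and Hk2, a hexokinase (3.45, SE 0.09). In osteocytes they were those of Pfkl (3.66) and Eno1, the main enolase (2.81). With vehicle Hk2 (1.75) and the neuronal enolase gene Eno2 (1.35) were higher in osteocytes and none was lower, and with FG-4592 none passed in either direction in edgeR, though 8 had an unadjusted p under 0.05 and DESeq2 called 1 lower. The interaction was negative past both cutoffs for Hk2 (−1.67), which rose less in osteocytes, and for Eno2 (−1.16), with log2 fold changes of 0.38 (FDR 0.102) in MSCs and −0.78 (FDR 0.00109) in osteocytes, and positive for none.

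Other members of the same gene families were mostly silent. Of 24 paralogs of the members, 10 were tested, and the testis forms Pgk2 and Ldhc had 0 counts in every library. In MSCs Slc16a11 rose, from 0.0277 to 0.134 CPM, and Slc16a4 and Slc16a9 fell, from 0.414 and 0.662 to 0.0149 and 0.216 CPM. DESeq2 did not call the rise. In osteocytes Slc16a11 rose, from 0.0808 to 0.405 CPM, and Slc16a9 fell, from 11.5 to 5.21 CPM. With vehicle 3 paralogs were higher in osteocytes (Slc16a9 by log2 4.10, Ldhd by 2.73 and Slc16a6 by 1.56) and none was lower, with 5 at an unadjusted p under 0.05 and the same counts in DESeq2. With FG-4592 Slc16a9 (4.56), Ldhd (2.88), Slc16a6 (2.64), Slc16a11 (1.57) and Emb (1.39) were higher in osteocytes, and none of the 10 was lower in edgeR or DESeq2, with 9 at an unadjusted p under 0.05 in either direction. None had a negative interaction past both cutoffs in edgeR or DESeq2, with 3 at an unadjusted p under 0.05 in either direction. Except for Slc16a9, Emb, Nptn and Pgam5, the paralogs tested had at most 68 counts in a library, so their fold changes are imprecise. Like Slc16a3, Slc16a11 would not have passed the filter on low counts without the treated osteocyte libraries, the higher group in 2 of its calls. Emb, which encodes a relative of basigin that also escorts MCT1, had between 13227 and 46577 counts.

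Pyruvate that is not reduced enters mitochondria, and 15 genes of this step and its control were all tested. Pdk1 (log2 4.87, SE 0.07) and Pdk3 (1.33) rose in MSCs and none fell. Both encode kinases that switch off pyruvate dehydrogenase. In osteocytes Pdk1 (4.01) and Pdk4 (1.64) rose and Pdp2, a phosphatase that switches the complex on, fell by 1.47. Pcx, pyruvate carboxylase, was higher in osteocytes with vehicle (1.38) and with FG-4592 (1.15), and none was lower. Pdp2, at −0.31 (FDR 0.0839) in MSCs, was the single gene with a negative interaction past both cutoffs (−1.16), and none had a positive one. The pyruvate carrier genes Mpc1 and Mpc2 and the subunit genes Pdha1, Pdhb, Dlat, Dld and Pdhx had log2 fold changes between −0.27 and 0.06 in MSCs and between −0.45 and −0.26 in osteocytes. In edgeR 11, 14, 12, 10 and 10 of the 15 had an unadjusted p under 0.05 in the 5 comparisons, taken in the order FG-4592 in MSCs and in osteocytes, cell types with vehicle and with FG-4592, and interaction, and DESeq2 gave the same calls in number.

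The shuttles that reoxidise cytosolic NADH by another route (10 genes, all tested) had no call with FG-4592 in either cell type or in the interaction, in edgeR or DESeq2, although 8, 9 and 6 genes had an unadjusted p under 0.05. Gpd1, which makes glycerol phosphate and is abundant in fat cells, was higher in osteocytes, at 213.5 against 0.186 CPM with vehicle and 109.3 against 0.139 CPM with FG-4592, and none was lower. Of 9 genes on branches from triose phosphate and 3-phosphoglycerate, all tested, Pgp, which removes side products of glycolytic enzymes, rose in both cell types (log2 1.91 and 1.46). Phgdh, the gate to serine synthesis, fell in osteocytes (−2.12) and none fell in MSCs, and its interaction was −1.54. With FG-4592 Phgdh (−2.09) and Psat1, the next enzyme of serine synthesis (−1.07), were lower in osteocytes than in MSCs, and with vehicle none of the 9 passed in edgeR or DESeq2, with 5 at an unadjusted p under 0.05. Of 6 splicing factors that act on Pkm, 5 were tested and none passed both cutoffs in any of the 5 comparisons in edgeR or DESeq2, with 2 to 4 at an unadjusted p under 0.05 in each.

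Gapdh is widely used as a reference gene, and the study's qPCR took Gapdh or β-actin as internal control, or Hprt in another cell line, so 14 other common reference genes were set beside it. None of the 14 passed both cutoffs with FG-4592 in either cell type in edgeR or DESeq2, with 7 and 8 at an unadjusted p under 0.05, whereas Gapdh rose 6.47-fold and 9.46-fold. The β-actin gene Actb had a log2 fold change of −0.64 in MSCs (SE 0.06, FDR 8.28e-07) and −0.94 in osteocytes (SE 0.07, FDR 6.54e-09). Hprt had 0.94 in MSCs (SE 0.07, FDR 1.38e-08) and 0.45 in osteocytes (SE 0.07, FDR 4.85e-05). The smallest absolute log2 fold changes with FG-4592 were those of Rpl13a in MSCs (0.04) and Hsp90ab1 in osteocytes (−0.01), 2 genes chosen after their values were seen. Between the cell types Tuba1a was lower in osteocytes with FG-4592 (−1.16), and with vehicle and in the interaction none passed in edgeR or DESeq2, with 9 and 7 at an unadjusted p under 0.05.

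Among the genes with the profile most like the mean of the 10 members over the 12 libraries were Mxi1 (Pearson r 0.998), Sdc4 (0.996), Bhlhe40 (0.995) and Rcor2 (0.995). The mean gave each member the same weight, also Slc16a3 with its few counts and Ldhb, which fell. Mxi1, a repressor that opposes MYC, went from 35.6 to 132.2 CPM in MSCs and from 34.5 to 188.8 CPM in osteocytes. It was thus highest in treated osteocytes, like Slc16a1, Slc16a3 and Bsg. Tpi1, Gapdh, Pgk1, Pgam1, Pkm and Ldha were highest in treated MSCs. For single members the closest gene was the upper-glycolysis isomerase gene Gpi1 for Tpi1 (0.999), the glucose carrier gene Slc2a1 for Pgk1 (0.998), the mitophagy receptor gene Bnip3l for Pgam1 (0.999) and Pdk1 for Ldha (0.999). It was Mef2d for Gapdh (0.996), Ube2z for Pkm (0.998), Rcbtb2 for Ldhb (0.996), Uaca for Slc16a1 (0.995), Rere for Slc16a3 (0.900) and the amino acid carrier gene Slc1a4 for Bsg (0.998). The 12 libraries fall into 4 conditions, so these values describe 4 levels more than 12 independent points, and they were picked as the highest of many genes.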

How the data were processed

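Poly(A) RNA of 12 libraries (4 conditions, 3 each, grouped by the labels) was sequenced as 100-base pairs. The authors aligned reads with STAR 2.7.2a to mm10. They counted uniquely mapped pairs per gene (Gencode M22) with featureCounts of Subread 1.6.2, for every overlapping gene and without strand. They deposited raw counts, the unit used here. Library totals ranged from 52829185 to 68108470, which for Slc16a3 leaves only a few counts.

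The 16484 genes exceeding 10 counts in 3 or more libraries were fitted in R 4.3.3 with edgeR 4.0.16 (TMM, quasi-likelihood, 4 condition means, 8 residual degrees of freedom). The 5 contrasts were tested, with Benjamini-Hochberg FDR over all genes. A call needed an FDR below 0.05 and a log2 change beyond 1 in either direction. The share of all genes with an unadjusted p under 0.05 was not computed, so counts at that p have no background beside them. Intervals are 95%. Ratios and shares had exact permutation tests (scipy 1.17.1). RPKM is CPM per kilobase of merged exons. Copies were found with blastn 2.17.0 on Gencode M21 transcripts. On simulated counts, between 197 and 200 of 200 changed genes were recovered per contrast, with between 1 and 7 false calls. Recovery was not tested separately for genes with few counts, such as Slc16a3, or for values near the fold cutoff, such as those of Ldhb and Slc16a1 in osteocytes.

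The members and the gene lists were chosen with earlier results of these data known. All members are named. Of other lists, genes past both cutoffs are named, or the 2 largest rises and 2 largest falls where more than 4 passed, and likeness was ranked by Pearson r of log2 CPM (prior count 2) among non-member genes whose mean reached 100 counts in some condition. Alternatives included DESeq2 1.42.0, other scalings and filters, a replicate block and leaving out each library. Replicate numbers did not pair libraries (same-number correlations −0.0528 to 0.0543). Some results that the naming rule covers are not reported here.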

Additional observations from a re-analysis of the deposited data

Results flagged for a closer look

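The response to FG-4592 differed between osteocytes and MSCs for 6 of the 10 genes at an FDR under 0.05 by the interaction contrast of edgeR's quasi-likelihood test, where 24.3% of all genes did, and Bsg was the 1 of these past both cutoffs. The difference, as the log2 response of osteocytes minus that of MSCs, was 1.243 for Bsg, 0.7418 for Pkm and 0.5477 for Gapdh, which responded more in osteocytes. It was −0.5598 for Ldha, −0.3701 for Slc16a1 and −0.2826 for Pgam1, which responded more in MSCs. In all 6 genes each treated library lay above each vehicle library of its cell type, so the responses differ in size and not in direction. Leaving out each library in turn gave 1.1326 to 1.2921 for Bsg, 0.6783 to 0.7656 for Pkm, 0.4839 to 0.5888 for Gapdh, −0.648 to −0.5428 for Ldha, −0.4785 to −0.3206 for Slc16a1 and −0.356 to −0.2669 for Pgam1.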

How the results depend on the processing

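Of up to 24 alternatives per comparison and gene (23 for the interaction), those that changed a direction concerned values near 0 or few counts. With vehicle, the difference of Pgam1 turned from −0.04 to 0.0072 without genes that share exons and to 0.0137, 0.014 and 0.0034 without vehicle-treated MSC replicates 1 and 2 and osteocyte replicate 1. That of Bsg turned to −0.0049 with scaling by library size alone and to −0.016 without vehicle-treated osteocyte replicate 3. Without vehicle-treated MSC replicate 2, Slc16a3 turned to 0.8954 (FG-4592 in MSCs) and 0.1561 (cell types with vehicle). None of these passed the test. Over all fits that left out 1 library, the extremes on the other side were −0.0593 for Pgam1, 0.1342 for Bsg, and −0.7453 and −1.5363 for Slc16a3 in those 2 comparisons.

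Leaving out genes that share exons removes Tpi1, Gapdh and Pkm by construction. Then 5 members rose in MSCs and 5 in osteocytes, 0 were lower in osteocytes with vehicle, and counts over all genes became 546 lower in MSCs, 680 higher in osteocytes, 634 lower between cell types with vehicle, 1377 higher with FG-4592 and 404 higher in the interaction. The likelihood ratio test called 2 members higher in the interaction, Slc16a3 being added (FDR 0.0295), and the cause was not tested. The number of members that fell with FG-4592 in osteocytes ranged from 0 to 1 when single libraries were left out. The replicate block left the members' counts as they were except between FG-4592-treated cells, where 2 rather than 3 were higher (Slc16a3 2.18, FDR 0.0618), and 3 of 12 libraries correlated best with their own number. The planned log2 ratio of Slc16a3 to Slc16a1 was not run, since 2 libraries had 0 counts. Depth limits Slc16a3 and other genes with few counts, such as the rarest paralogs and Eno4.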
